A study of Mus musculus with 15 samples.

Results

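The subject is a list of 40 endothelial and angiogenic genes, followed in whole mouse adrenal glands through dexamethasone suppression and recovery. A gene entered when the deposited table held a probe set annotated to that gene symbol alone. Of the 40 listed genes, 39 were measured, by 40 probe sets, among 21439 genes tested in all. Rasip1, a junction regulator, was the 1 listed gene left out, because its probe set is shared with another symbol. Angpt1 was the 1 member with a further probe set of its symbol alone. Another 4 probe sets of measured members are shared with another symbol and were not used. The genes were listed by what they are known to do, with earlier results of these data known.

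RNA was hybridised to 15 one-colour Affymetrix arrays, 1 for each titled biological replicate. All animals were wild type C57BL/6J males with a labelled age of 6 weeks. Control adrenals (4 arrays) were taken before any drug, withdrawal adrenals (3 arrays) after 14 days of dexamethasone in the drinking water, and recovery adrenals 3 days and 7 days after the drug was stopped (4 arrays each). Dexamethasone, a synthetic glucocorticoid, suppresses ACTH from the pituitary and with it the stimulus to the steroid-making cortex. Because controls preceded treatment, the drug and the elapsed days cannot be told apart in comparisons with control. The titles call the samples biological replicates but do not say whether a sample is the gland pair of 1 animal or a pool.

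Values are log2 levels. Medians of the arrays lay between 1.55 and 1.643, and levels near or under these are called the floor, where a further fall has little room. Across genes, arrays correlated with their group at 0.9875 to 0.9908 on average, and 0 pairs of arrays were identical. Group levels are means ± SD, differences are log2 ± the standard error of the model, and a gene "rose" or "fell" when limma's p-value, adjusted over all genes of a comparison by Benjamini-Hochberg, was under 0.05. The number of arrays limits the precision.

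The adrenal cortex is among the most densely vascularised tissues: nearly every steroid-making cell touches a fenestrated capillary, through which lipoprotein cholesterol enters and corticosterone leaves. VEGF-A made by parenchymal cells acts on KDR of endothelial cells to keep capillaries open and fenestrated, while FLT1 binds the same ligand as a decoy and FLT4 serves VEGF-C and VEGF-D. Angiopoietins act through the TIE receptors, apelin through its own G protein-coupled receptor, and DLL4 through Notch receptors, and endothelial identity is held by ETS factors such as ERG and FLI1 and by SOX factors of the F group.

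RefSeq promoters (GRCm38.p6, 250 bases before to 50 after a start site) were at hand for 20 of the 40 listed genes, with 25 promoters. The promoters of Kdr, Flt4, Cldn5 and Erg are printed because their genes passed the threshold in a recovery comparison and stand for VEGF receptors, a junction protein and a lineage factor. Capitals mark matches, on either strand, to a short core of the sites of ETS, SOX or GATA factors or of the hypoxia response. Of the Erg promoters only promoter 3 is printed, the window of this gene that holds such matches.
Kdr, chr5:75978406-75978705, minus strand: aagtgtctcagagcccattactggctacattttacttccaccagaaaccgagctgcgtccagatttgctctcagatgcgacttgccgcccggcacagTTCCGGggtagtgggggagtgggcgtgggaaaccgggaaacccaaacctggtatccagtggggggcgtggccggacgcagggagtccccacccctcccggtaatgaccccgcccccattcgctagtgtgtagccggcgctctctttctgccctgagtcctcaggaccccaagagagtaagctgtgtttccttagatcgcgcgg
Flt4, chr11:49609429-49609728, plus strand: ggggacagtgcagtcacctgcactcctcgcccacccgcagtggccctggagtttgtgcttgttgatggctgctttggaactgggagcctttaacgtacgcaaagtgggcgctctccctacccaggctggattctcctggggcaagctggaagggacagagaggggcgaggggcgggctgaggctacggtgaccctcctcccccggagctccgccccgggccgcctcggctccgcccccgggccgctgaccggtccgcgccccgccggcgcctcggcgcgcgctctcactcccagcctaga
Cldn5, chr16:18776597-18776896, plus strand: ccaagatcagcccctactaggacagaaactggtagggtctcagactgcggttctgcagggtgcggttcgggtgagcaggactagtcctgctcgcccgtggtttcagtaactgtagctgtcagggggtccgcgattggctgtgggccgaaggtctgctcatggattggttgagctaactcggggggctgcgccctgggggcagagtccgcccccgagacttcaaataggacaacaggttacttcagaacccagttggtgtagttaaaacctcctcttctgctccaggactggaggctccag
Erg, promoter 3, chr16:95459299-95459598, minus strand: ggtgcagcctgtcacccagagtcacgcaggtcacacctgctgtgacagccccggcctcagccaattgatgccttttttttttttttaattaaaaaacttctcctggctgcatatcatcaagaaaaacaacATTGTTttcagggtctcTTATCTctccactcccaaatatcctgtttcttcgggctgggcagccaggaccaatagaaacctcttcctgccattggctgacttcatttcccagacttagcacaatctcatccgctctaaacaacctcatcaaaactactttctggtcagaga
The Kdr window holds 1 ETS match, whose first base lies at -153 from the start site. In the Erg window a SOX match begins at -120 and a GATA match at -103, while Erg promoters 1 and 2 hold none of the 4 motifs. The Flt4 and Cldn5 windows hold none of the 4 motifs. Cd34 also passed in a recovery comparison, and its window, not printed, holds none of them either.
Over the members, 1 of 25 promoters (4%) had the ETS core CCGGAA, against 14.9% of all 32851 promoters of this length in the table. The SOX core AACAAT was in 4 of the 25 members' promoters (16%, against 10.7% of all). The GATA core AGATAA was in 3 of them (12%, against 11.2% of all), and the hypoxia response core ACGTG was in 2 (8%, against 19.6% of all). These matches describe letters in short windows and are no measure of factor binding.

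At the end of dexamethasone most endothelial members stood below control, and 4 fell. They were Aplnr, the apelin receptor (2.56-fold lower), Gpihbp1, which carries lipoprotein lipase onto the capillary wall (1.89-fold), Kdr, the main VEGF receptor (1.71-fold), and Mmrn2, a matrix protein of the endothelial surface that binds CLEC14A (1.41-fold). A single member rose, the ligand Angpt1, from the floor. Members past the threshold were 5 of 39 (12.8%), against 4.3% of all genes; 1.81% of all genes fell and 2.49% rose. At an unadjusted p under 0.05 there were 19 members, against 17% of all genes. The median member differed by -0.22 (all genes, -0.01), and 29 of 39 had a lower mean than control, against 51.3% of all genes. In 15 of 39 members (38.5%) every withdrawal array lay below every control array, against 6.94% of all genes; 1 member lay wholly above, against 8.15%. In whole-gland RNA, fewer endothelial cells and less RNA per endothelial cell cannot be told apart.

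Within 3 days of withdrawal the direction was the opposite. Against the withdrawal glands 8 members rose and 0 fell: Aplnr (3.63-fold), Flt4 (2.32-fold), Erg (2.12-fold), Gpihbp1 (2.06-fold), Icam2 (1.76-fold), Cd34 (1.66-fold), Cldn5 (1.63-fold) and Pecam1 (1.31-fold). These are 20.5% of the members, where 2.25% of all genes passed, 1.37% rising and 0.886% falling. At an unadjusted p under 0.05 there were 19 members, against 13.9% of all genes. The median member was higher by 0.30 (all genes, -0.01) and 33 of 39 means were higher, against 48.8% of all genes. For 14 members (35.9%) every day 3 array lay above every withdrawal array, against 6.39% of all genes, and for 0 members below, against 5.73%. The count of 8 rises was 4 without withdrawal replicate 2 or 3 or day 3 replicate 4, and 5 without day 3 replicate 3. Without withdrawal replicate 3, 1 member fell (Angpt1).

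At day 7, 4 members stood above withdrawal: Aplnr (3.17-fold), Gpihbp1 (1.95-fold), Kdr (1.68-fold) and Cldn5 (1.66-fold). They are 10.3% of the members, where 1.88% of all genes passed and 0.98% rose; 0 members fell, against 0.905%. At an unadjusted p under 0.05 there were 20 members, against 13.5% of all genes. The count of 4 rises was 2 without day 7 replicate 1, and without withdrawal replicate 3 Angpt1 fell. The median was 0.28 (all genes, 0.00) and 31 of 39 means were higher, against 51.1%. Groups did not overlap in 13 members that were higher (33.3%, against 6.46%) and in 3 that were lower, Angpt1, Angpt2 and Vwf (7.69%, against 5.89%). The withdrawal arrays enter all of these comparisons, so a chance high or low withdrawal value moves them together.

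**Figure D1:**
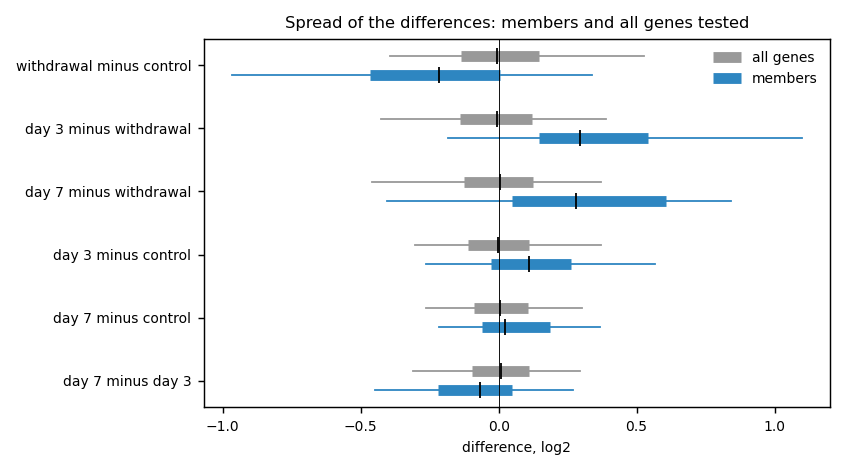
Differences (log2, x axis) for the 6 comparisons of groups (y axis), over the measured members (blue) and over all genes tested (grey). Thick bars span the middle quartiles, thin lines the 5th to 95th percentiles and black ticks the medians. The members' medians are -0.22, 0.30 and 0.28 in the 3 comparisons with withdrawal, and the medians of all genes lie at -0.01, -0.01 and 0.00.

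**Figure D2:**
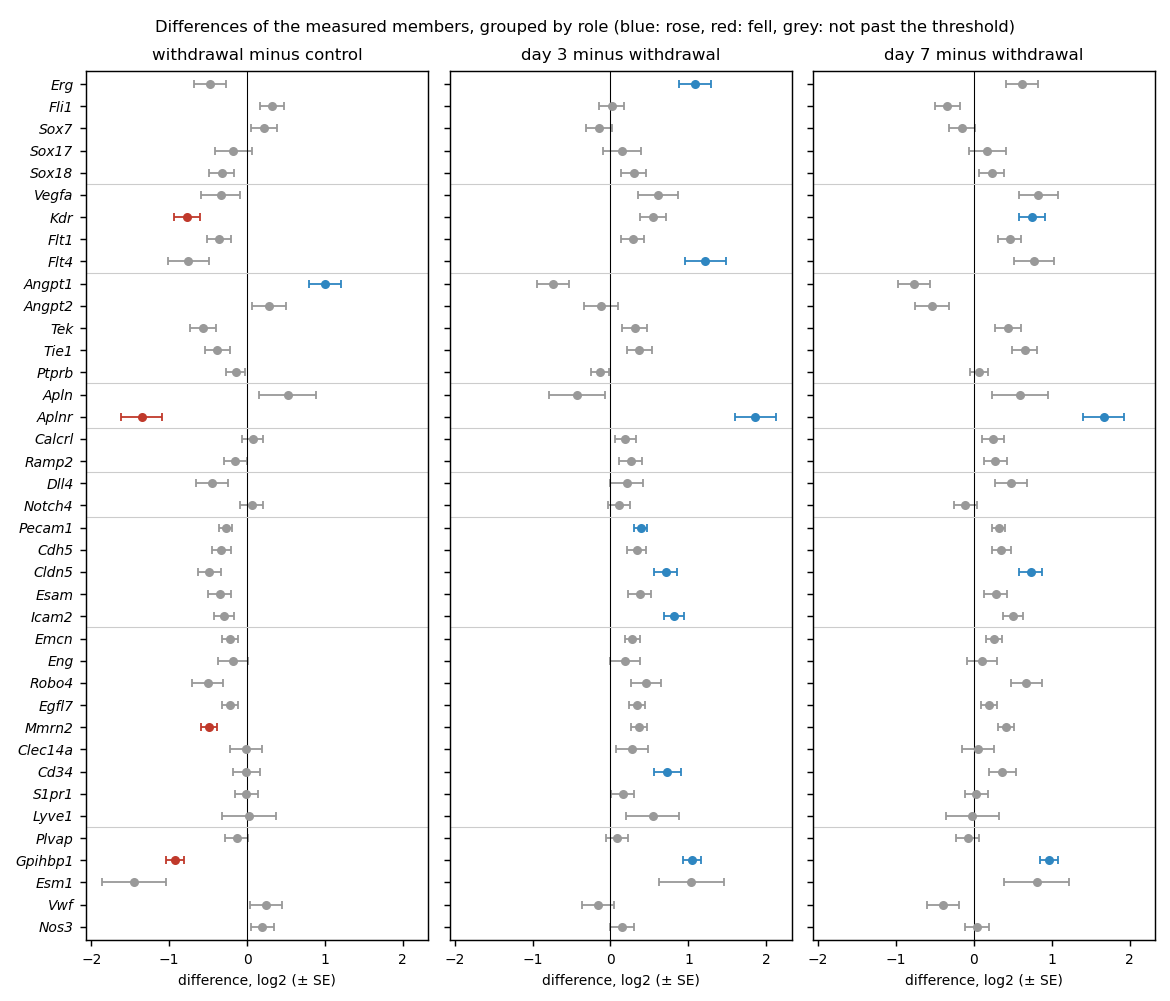
Difference (log2, x axis) ± standard error for each of the 39 members (y axis, in blocks by role) in 3 comparisons. Blue points rose, red points fell and grey points did not pass the threshold. Aplnr and Gpihbp1 are coloured in all 3 panels.

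Among VEGF receptors, Kdr (probe set 17448924) read 7.61, 7.68, 7.45 and 7.49 on the control arrays, 6.65, 6.84 and 6.87 at withdrawal, 7.46, 7.10, 7.43 and 7.33 at day 3, and 7.45, 7.48, 7.15 and 8.06 at day 7. Every withdrawal array lay below every array of the other groups. The fall from 7.56 ± 0.11 (SD, n = 4) to 6.79 ± 0.12 (n = 3) was -0.77 ± 0.17 (adjusted p = 0.016), the day 3 mean stood 0.54 ± 0.17 above withdrawal (0.122) and the day 7 rise was 0.75 ± 0.17 (0.033). The fall did not pass without withdrawal replicate 1 (adjusted p = 0.0686) or 2 (0.0516), and the day 7 rise did not pass without withdrawal replicate 1 (0.118), 2 (0.0909) or 3 (0.0618) or day 7 replicate 1 (0.0668) or 2 (0.0649).

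Flt4, the receptor of lymphatic and of sprouting endothelium (probe set 17248992), read 3.51, 3.30, 4.26 and 3.52 in control, 3.24, 2.87 and 2.57 at withdrawal, 3.51, 4.07, 4.67 and 4.19 at day 3 and 3.90, 3.84, 3.40 and 3.50 at day 7. The withdrawal arrays were the lowest of the series, though withdrawal replicate 1 came close to control replicate 2. Withdrawal replicate 3 lay near the floor (under 2.6). The withdrawal difference of Flt4 was -0.76 ± 0.26 (adjusted p = 0.132). Its rise by day 3 was 1.22 ± 0.26 (0.0235), and day 7 stood 0.77 ± 0.26 above withdrawal (0.171). The day 3 call was lost without withdrawal replicate 2 (0.0862) or 3 (0.0991) or day 3 replicate 3 (0.0575) or 4 (0.0609). Flt1 had lower values at withdrawal (6.24 ± 0.34) than in control (6.60 ± 0.07), by -0.36 ± 0.15 (0.229).

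The ligand Vegfa (probe set 17345293) read 7.49, 8.02, 7.53 and 7.93 in control, 7.10, 7.71 and 7.39 at withdrawal, 8.53, 7.55, 8.01 and 7.95 at day 3 and 8.03, 7.69, 8.58 and 8.62 at day 7. Groups overlapped in every comparison. Differences from withdrawal were 0.61 ± 0.25 at day 3 (adjusted p = 0.284) and 0.83 ± 0.25 at day 7 (0.123), and withdrawal differed from control by -0.34 ± 0.25 (0.553).

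In the apelin pair the receptor moved and the ligand did not pass. Aplnr (probe set 17372725), which marks capillary and venous endothelium during vessel growth, read 6.31, 5.88, 6.03 and 5.59 in control, 4.87, 3.86 and 5.05 at withdrawal, 6.42, 6.73, 6.35 and 6.31 at day 3, and 6.04, 5.84, 6.74 and 6.42 at day 7. The 3 withdrawal arrays lay well below the rest, with replicate 2 the lowest, and the 4 day 3 arrays lay above or level with the highest control. Its fall was -1.35 ± 0.27 (adjusted p = 0.00941), the rise by day 3 was 1.86 ± 0.27 (0.002) and that by day 7 was 1.67 ± 0.27 (0.00466). Without withdrawal replicate 2 the fall was -0.99 (0.0458). Each of its 3 calls held in all 7 fits that left out 1 array of the groups compared.

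Apln (probe set 17541378) read 3.55, 4.22, 2.49 and 2.51 in control, 3.75, 3.90 and 3.48 at withdrawal, 3.00, 3.44, 3.51 and 3.19 at day 3 and 3.88, 4.10, 5.04 and 4.21 at day 7. Control arrays were split between higher and lower values (SD 0.85), and all day 7 arrays lay above all day 3 arrays. The day 7 mean was 1.12 ± 0.33 above control (unadjusted p = 0.00447, adjusted p = 0.672) and 1.02 ± 0.33 above day 3 (unadjusted p = 0.00785, adjusted p = 0.501), in limma's fit.

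Of the angiopoietins, Angpt1, a TEK agonist made mainly by perivascular cells (probe set 17316780), read 1.58, 1.73, 1.73 and 1.77 in control, 3.38, 2.69 and 2.05 at withdrawal, 2.02, 1.78, 1.97 and 2.10 at day 3 and 1.87, 1.97, 1.97 and 1.91 at day 7. Withdrawal replicates 1 and 2 stood apart, while withdrawal replicate 3 lay near the floor with the arrays of the other groups and below day 3 replicate 4. The rise of 1.00 ± 0.21 (adjusted p = 0.0124) was 0.67 without withdrawal replicate 1 and 1.33 without withdrawal replicate 3. A further Angpt1 probe set (17311312) differed by -0.01 ± 0.20 (adjusted p = 0.991), from means of 1.79 (control) and 1.78 (withdrawal). The probe sets of this gene disagree. Angpt2, the context-dependent antagonist released by activated endothelium, read 4.81, 4.48, 4.84 and 4.41 in control, 5.37, 4.54 and 4.85 at withdrawal, 4.29, 5.24, 4.57 and 5.08 at day 3 and 4.41, 4.39, 4.29 and 4.44 at day 7. Day 7 arrays were close together, and below all withdrawal arrays, by -0.54 ± 0.22 (adjusted p = 0.276).

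The TIE receptors were lower at withdrawal without passing. Tek, the angiopoietin receptor, had means of 6.75 ± 0.24, 6.18 ± 0.30, 6.49 ± 0.17 and 6.62 ± 0.21 in control, withdrawal, day 3 and day 7, and its withdrawal difference was -0.57 ± 0.16 (adjusted p = 0.0672). Tie1, the orphan partner of TEK, stood at 4.00 ± 0.12 at withdrawal and 4.65 ± 0.24 at day 7, a difference of 0.65 ± 0.16 (0.0501). Ptprb, a phosphatase that restrains TEK, differed by -0.15 ± 0.12 at withdrawal (0.594).

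**Figure D3:**
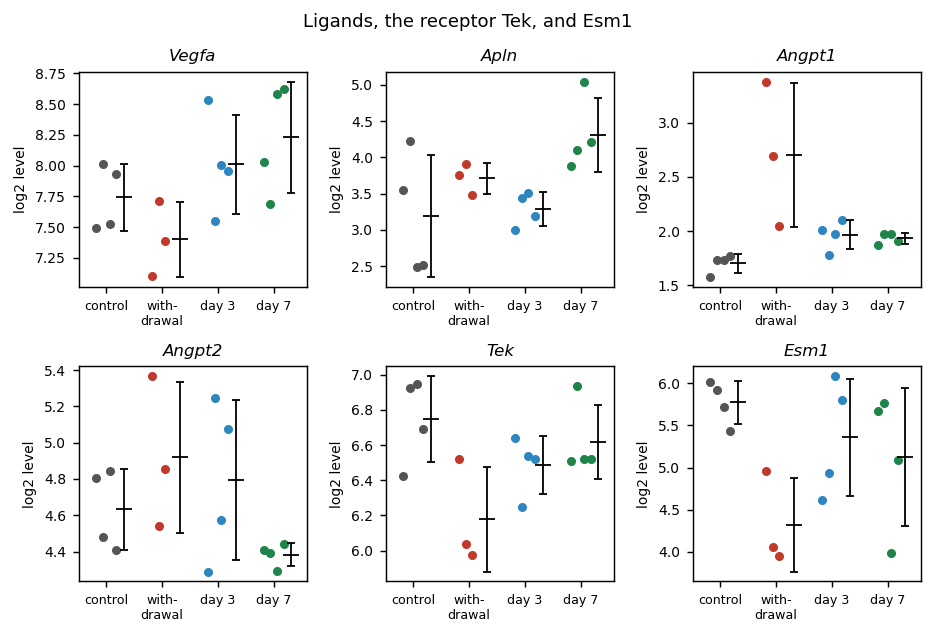
Log2 level (y axis) on each array (points) of the 4 groups (x axis) for the ligands Vegfa, Apln, Angpt1 and Angpt2, the receptor Tek and the sprouting marker Esm1; bars are mean ± SD. The withdrawal points of Angpt1 run from 2.05 to 3.38, above all 4 control points, while the Vegfa groups overlap.

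Junction and adhesion genes all had lower means at withdrawal and higher means afterwards. Of the 5 measured, 0 fell past the threshold at withdrawal, where 1.81% of all genes fell, and 3 rose by day 3, where 1.37% of all genes rose. Icam2, an adhesion protein of resting endothelium (probe set 17270877), read 4.54, 4.44, 4.28 and 4.34 in control, 4.19, 4.07 and 4.05 at withdrawal, 4.69, 4.95, 5.09 and 4.96 at day 3 and 4.69, 4.26, 4.78 and 4.72 at day 7. The day 3 arrays were above all control and all withdrawal arrays. Its rise from withdrawal to day 3 was 0.82 ± 0.13 (adjusted p = 0.00384), held in all 7 fits without 1 array, and day 3 exceeded control by 0.52 ± 0.12 (0.101).

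Cldn5, the claudin of endothelial tight junctions (probe set 17323755), read 4.12, 3.89, 4.12 and 4.12 in control, 3.80, 3.69 and 3.24 at withdrawal, 4.31, 4.21, 4.20 and 4.42 at day 3 and 4.37, 4.09, 4.62 and 4.15 at day 7. Withdrawal arrays lay below all others, replicate 3 lowest. It rose by 0.71 ± 0.15 at day 3 (adjusted p = 0.02) and 0.73 ± 0.15 at day 7 (0.0185), against a withdrawal difference of -0.49 ± 0.15 (0.0772). The day 3 call was lost without withdrawal replicate 3 (0.0808) or day 3 replicate 4 (0.0581), and the day 7 call without withdrawal replicate 3 (0.0678) or day 7 replicate 1 (0.0542).

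Pecam1, the pan-endothelial adhesion molecule CD31 (probe set 17270937), varied little within groups. Pecam1 held identical values (6.8054) on control replicate 4 and day 7 replicates 1 and 3. It read 6.77, 6.80, 6.86 and 6.81 in control, 6.49, 6.58 and 6.55 at withdrawal, 6.78, 6.94, 6.93 and 7.05 at day 3 and 6.81, 6.88, 6.81 and 6.93 at day 7, so that the 3 withdrawal arrays were the lowest of all. Withdrawal differed from control by -0.27 ± 0.08 (adjusted p = 0.0845), day 3 from withdrawal by 0.39 ± 0.08 (0.024) and day 7 from withdrawal by 0.32 ± 0.08 (0.0688). The day 3 call held in 1 of the 7 fits without 1 array (without day 3 replicate 1), with adjusted p from 0.0502 to 0.0853 in the others. Cdh5, the cadherin of adherens junctions, had a mean of 8.18 ± 0.10 in control and 7.85 ± 0.19 at withdrawal, a difference of -0.33 ± 0.12 (0.17), and Esam, a tight junction protein, one of -0.35 ± 0.15 (0.222).

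**Figure D4:**
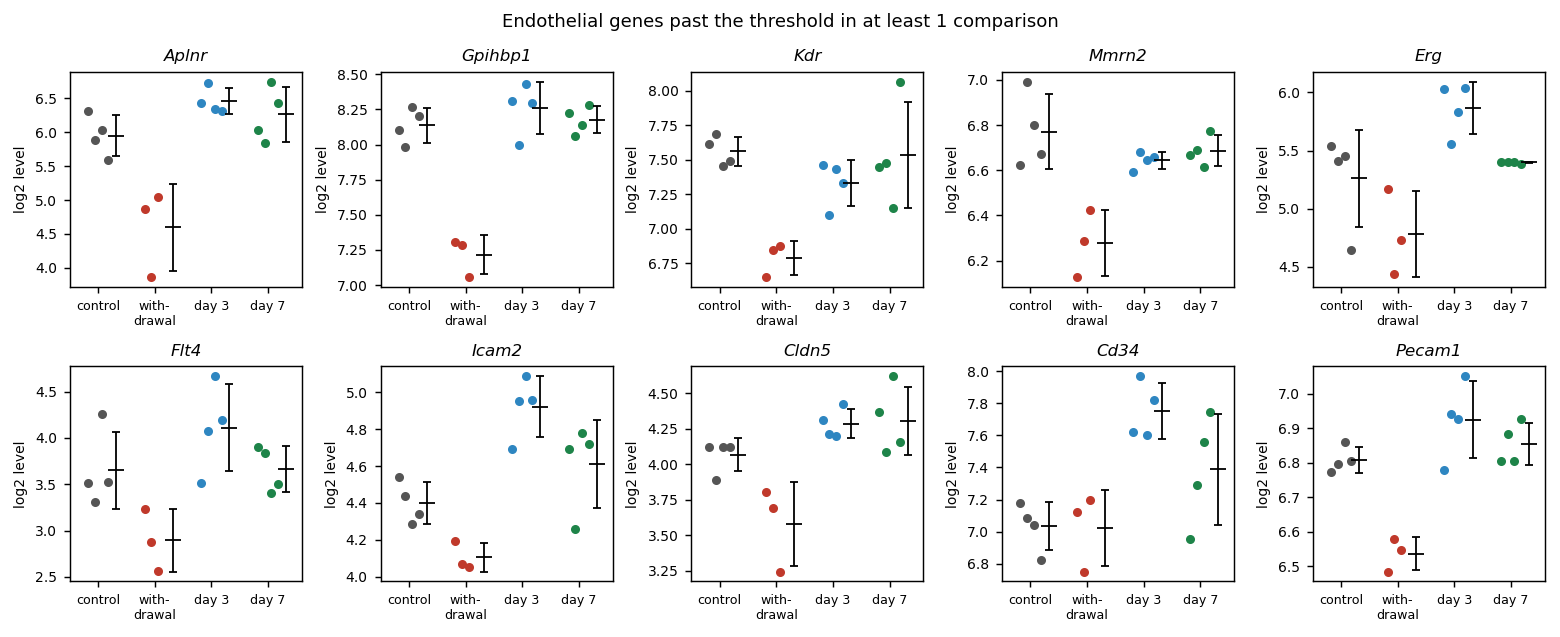
Log2 level (y axis) on every array (points) of the 4 groups (x axis) for the 10 members other than Angpt1 that passed the threshold in at least 1 comparison; bars are mean ± SD. In Aplnr, Gpihbp1, Kdr, Mmrn2, Flt4, Icam2, Cldn5 and Pecam1 the withdrawal points lie below all other points.

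Capillary specialisation genes split. Gpihbp1 (probe set 17312236) read 8.10, 7.98, 8.27 and 8.20 in control, 7.31, 7.29 and 7.06 at withdrawal, 8.31, 8.00, 8.43 and 8.30 at day 3 and 8.22, 8.06, 8.14 and 8.28 at day 7. The withdrawal arrays form a separate low set, and the other 12 arrays overlap. Its fall of -0.92 ± 0.12 (adjusted p = 0.000343), its day 3 rise of 1.04 ± 0.12 (0.000357) and its day 7 rise of 0.96 ± 0.12 (0.000653) had the lowest adjusted p of the members and passed in all 7 fits without 1 array.

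Esm1, a secreted proteoglycan induced by VEGF in sprouting tip cells (probe set 17290010), had a larger but noisier withdrawal difference, -1.45 ± 0.41 (adjusted p = 0.064). It read 6.02, 5.92, 5.72 and 5.44 in control, 4.96, 4.06 and 3.95 at withdrawal, 4.61, 4.94, 6.08 and 5.80 at day 3 and 5.67, 5.76, 3.99 and 5.08 at day 7. Withdrawal lay below all controls, and the recovery arrays ranged across both levels. Plvap, the diaphragm protein of fenestrae, had means of 6.56 ± 0.10 in control and 6.43 ± 0.30 at withdrawal, differing by -0.13 ± 0.14 (0.715). Vwf, the clotting factor stored by larger vessels, and Nos3, endothelial nitric oxide synthase, lay near the floor, with control means of 2.09 and 1.89.

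Surface and matrix genes ranged from a fall to no detected difference. Mmrn2 (probe set 17298825) read 6.62, 6.99, 6.80 and 6.67 in control, 6.13, 6.28 and 6.42 at withdrawal, 6.59, 6.68, 6.65 and 6.66 at day 3 and 6.67, 6.69, 6.61 and 6.77 at day 7. The withdrawal arrays were again the lowest. It differed by -0.49 ± 0.10 at withdrawal (adjusted p = 0.0124; 0.0619 without withdrawal replicate 1), and by 0.37 ± 0.10 (0.0823) and 0.41 ± 0.10 (0.0551) from withdrawal to day 3 and day 7. Its binding partner Clec14a had means of 4.15 ± 0.26 in control and 4.13 ± 0.32 at withdrawal.

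Cd34, a sialomucin of capillary endothelium that stromal and blood progenitor cells also carry (probe set 17221014), followed another course. It read 7.18, 7.09, 7.04 and 6.82 in control, 7.12, 6.75 and 7.19 at withdrawal, 7.62, 7.97, 7.60 and 7.82 at day 3 and 6.96, 7.29, 7.56 and 7.75 at day 7. Control and withdrawal overlapped (-0.01 ± 0.17), and all day 3 arrays lay above both. The day 3 rise over withdrawal was 0.73 ± 0.17 (adjusted p = 0.0378) and the difference from control 0.72 ± 0.16 (0.089). That rise passed in 0 of the 7 fits without 1 array, with adjusted p from 0.0509 (without day 3 replicate 3) to 0.177 (without withdrawal replicate 2).

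The other surface genes did not pass. Withdrawal differences were -0.51 ± 0.20 for Robo4, a guidance receptor that stabilises vessels (adjusted p = 0.188), -0.22 ± 0.10 for the sialomucin Emcn (0.285), -0.22 ± 0.10 for the secreted factor Egfl7 (0.314) and -0.18 ± 0.19 for the TGF-beta coreceptor Eng (0.707). S1pr1, the sphingosine phosphate receptor that guards barrier function, differed by -0.01 ± 0.15, and Lyve1, a hyaluronan receptor of lymphatic endothelium and some macrophages, by 0.02 ± 0.34.

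Of the 5 lineage transcription factors, Erg alone passed. It (probe set 17332358) read 5.54, 5.41, 5.45 and 4.64 in control, 5.17, 4.44 and 4.73 at withdrawal, 6.03, 5.56, 5.83 and 6.04 at day 3 and 5.40, 5.40, 5.40 and 5.39 at day 7. All day 3 arrays lay above all other arrays of the series, and control replicate 4 fell among the withdrawal values. From withdrawal to day 3 Erg rose by 1.08 ± 0.20 (adjusted p = 0.0119; 0.0704 without withdrawal replicate 2), while the withdrawal difference was -0.48 ± 0.20 (0.239, passing without control replicate 4) and the day 7 difference from withdrawal 0.62 ± 0.20 (0.161). Its relative Fli1, which blood cells also express, had means of 6.34 ± 0.18 in control and 6.65 ± 0.31 at withdrawal, a difference of 0.32 ± 0.16 (0.324). Sox18, Sox17 and Sox7 differed at withdrawal by -0.33 ± 0.16 (0.334), -0.18 ± 0.24 (0.782) and 0.22 ± 0.17 (0.564), with Sox7 near the floor.

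Notch and adrenomedullin receptor genes did not pass in any of the 6 comparisons. Dll4, the Notch ligand of tip and arterial cells, had means of 3.82 ± 0.29, 3.37 ± 0.11, 3.57 ± 0.43 and 3.84 ± 0.22 in the order of the groups and differed by -0.45 ± 0.21 at withdrawal (adjusted p = 0.285). Notch4, an endothelial Notch receptor, differed by 0.06 ± 0.15 (0.898). Calcrl and Ramp2, which together form the adrenomedullin receptor, differed by 0.07 ± 0.14 (0.87) and -0.15 ± 0.15 (0.675).

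**Figure D5:**
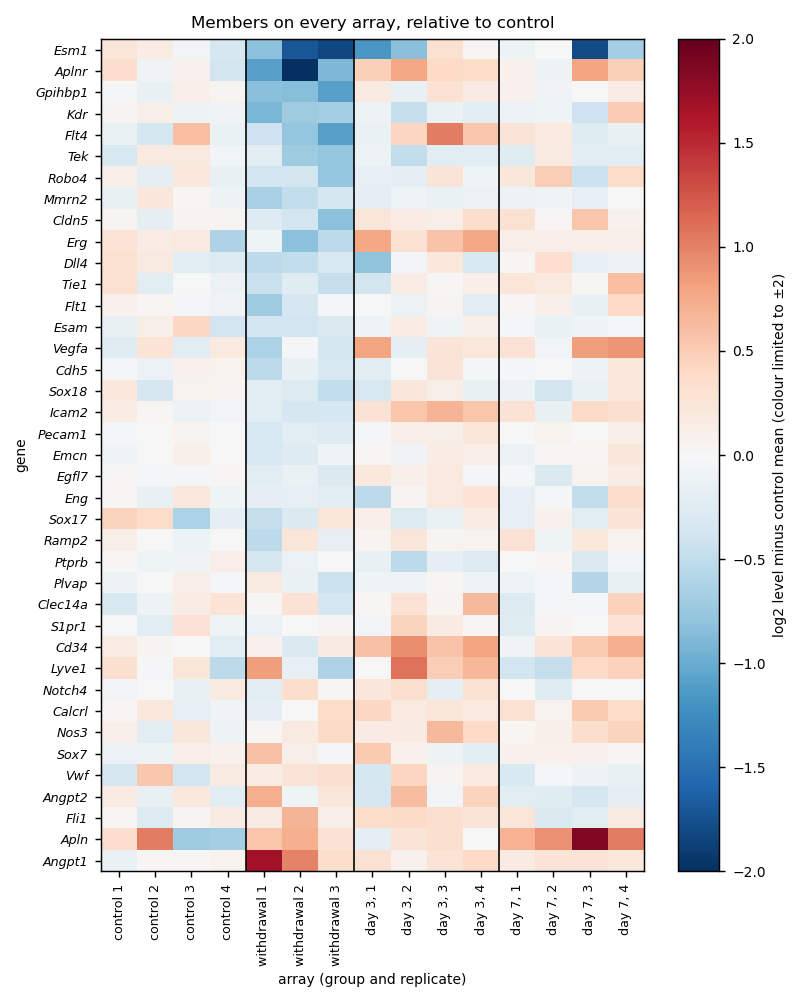
Log2 level of each member (rows) on each array (columns) minus the gene's control mean, ordered by the mean of this difference at withdrawal; blue is lower, red is higher, and colours stop at ±2. The top rows, among them Esm1, Aplnr, Gpihbp1 and Kdr, are blue on the withdrawal arrays, and the lowest rows are Apln and Angpt1.

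At day 3, 27 of 39 members had a higher mean than control and 12 a lower one, from -0.41 (Esm1) to 0.72 (Cd34). None passed in limma's fit (0 of 39, where 0.131% of all genes did), and 6 had an unadjusted p under 0.05 (10% of all genes). The median was 0.11 (all genes, 0.00), or 0.07 without day 3 replicate 2 or with further quantile normalization. In 7 of 39 members (17.9%, against 2.75% of all genes) all day 3 arrays lay above all controls: Erg, Fli1, Angpt1, Aplnr, Cldn5, Icam2 and Cd34. Of these Angpt1 was near the floor, and its further probe set had a lower mean than control (-0.16 ± 0.19). Ptprb was the 1 member with every day 3 array below control (2.56%, against 2.45%), at -0.28 ± 0.11 (adjusted p = 0.395). With limma's trend and robust options Cd34 passed, the 1 member to do so.

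At day 7 none of 39 passed against control (0.0187% of all genes did), 3 had an unadjusted p under 0.05 (5.95% of all genes), and the median was 0.02. With 1 array left out that median ran from -0.02 (without day 7 replicate 4) to 0.08 (without control replicate 3), and further quantile normalization gave -0.02. Angpt1 was the 1 member with all day 7 arrays above control (against 1.75% of all genes), and 0 lay below (against 1.4%). Angpt1 was near the floor here too, and its further probe set differed from control by -0.23 ± 0.19. Gpihbp1 differed from control by 0.04 ± 0.11, Kdr by -0.03 ± 0.15, Mmrn2 by -0.08 ± 0.09 and Aplnr by 0.31 ± 0.25. Between day 7 and day 3, 0 members passed (0% of all genes did), and 5 had an unadjusted p under 0.05 (7.07% of all genes). Erg (-0.47 ± 0.19, adjusted p = 0.624) and Fli1 (-0.36 ± 0.15, adjusted p = 0.627) had all day 7 arrays below all day 3 arrays (against 1.74% of all genes), and Apln all above (against 1.81%). A p-value that misses the threshold does not show that levels had returned.

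Other genes of these pathways gave few calls. Among 9 measured VEGF family and coreceptor genes, Vegfc, a ligand of FLT4, rose at withdrawal by 0.97 ± 0.25 (adjusted p = 0.0361), from 4.28 to 5.25, and Vegfd, another, fell by day 3 by 0.78 ± 0.18 (0.0353), from 8.43 to 7.65. In the apelin, adrenomedullin and EG-VEGF list of 9, Ackr3, a scavenging receptor for CXCL12 and adrenomedullin, fell at withdrawal by 1.12 ± 0.24 (0.0163) and rose by 1.34 ± 0.24 at day 3 (0.00875) and 1.27 ± 0.24 at day 7 (0.0136). Its means were 4.91 in control and 3.79 at withdrawal. Apela, Prok1, Prok2, Prokr1 and Prokr2 were near the floor in all groups.

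Of 15 Notch, ephrin and arterial genes, Efnb2, the arterial ephrin ligand, fell at withdrawal (-0.64 ± 0.13, adjusted p = 0.0109), and 0 passed at day 3 or day 7 against withdrawal. Among 8 venous and inflamed endothelium genes Vcam1, a leukocyte adhesion molecule that macrophages can also express, rose at withdrawal by 1.53 ± 0.23 (0.00152). In the list of 9 TGF-beta and BMP genes Id3, a BMP-responsive inhibitor of DNA binding, rose by 0.64 ± 0.14 (0.021), and Id1 was 0.93 ± 0.15 above control at day 3 (0.0434). Of 14 tip cell and sprouting genes, the membrane protease Mmp14 rose at withdrawal (0.42 ± 0.11, adjusted p = 0.04), while the list's median was -0.20. Withdrawal medians of the other pathway lists were 0.22 for the VEGF family, -0.06 for apelin, adrenomedullin and EG-VEGF, 0.00 for Notch, ephrin and arterial genes and 0.05 for TGF-beta and BMP genes. For venous and inflamed endothelium the median was 0.23, with 8 of 8 means higher than control. Each of these lists, and the tip cell list, had 1 gene past the threshold at withdrawal (6.67% to 12.5% of a list, against 4.3% of all genes). From withdrawal to day 3 the VEGF family and the apelin, adrenomedullin and EG-VEGF lists each had 11.1% past it, against 2.25% of all genes. At day 7 against withdrawal the latter list had 11.1%, against 1.88%.

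A further list of 60 measured endothelial genes gave 4 lower and 1 higher at withdrawal, 6 higher and 1 lower at day 3, and 3 higher and 1 lower at day 7, with medians of -0.04, 0.05 and 0.09. Its shares past the threshold were 8.33%, 11.7% and 6.67%, against 4.3%, 2.25% and 1.88% of all genes. At withdrawal 33 of the 60 means were lower than control (55%, against 51.3% of all genes) and 27 higher. Groups did not overlap in 9 genes that were lower (15%, against 6.94%) and in 9 that were higher (15%, against 8.15%). From withdrawal to day 3 they did not overlap in 11 higher (18.3%, against 6.39%) and 3 lower (5%, against 5.73%). At day 7 these were 11 higher (18.3%, against 6.46%) and 1 lower (1.67%, against 5.89%). The largest falls at withdrawal were Gja1, a gap junction protein that cortical cells also express (-2.00 ± 0.25), Ehd3, an endocytic trafficking protein (-1.41 ± 0.21, adjusted p = 0.00147), and Myct1, an endothelial gene of the ETS program (-0.87 ± 0.17, adjusted p = 0.00783). The junction protein Jam2 rose by 0.54 ± 0.11 (adjusted p = 0.0095). From withdrawal to day 3 the 4 largest rises were Myct1 (1.22 ± 0.17), the repressor Bcl6b (1.08 ± 0.20), Ehd3 (0.95 ± 0.21) and Nostrin, which traffics NOS3 (0.86 ± 0.16). At day 7 Bcl6b (1.32 ± 0.20), Ehd3 (1.24 ± 0.21) and Myct1 (1.05 ± 0.17) stood above withdrawal and Jam2 below it (-0.44 ± 0.11).

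Markers of other cells moved over the same groups. Of 15 macrophage genes 12 rose and 0 fell at withdrawal, where 2.49% of all genes rose and 1.81% fell. The mean log2 level of the macrophage genes per array ran from 5.31 to 5.47 in control, 6.63 to 7.04 at withdrawal, 6.06 to 6.58 at day 3 and 5.63 to 6.45 at day 7. Among them Gpnmb was near the floor in control and Cd163 in control, at withdrawal and at day 7. The list's median difference from control was 0.94 at withdrawal, 0.27 at day 3 and 0.22 at day 7. Its largest difference was 7.63, 6.71 and 5.28 in the same order, which raises the means above what most of the list shows. Of 11 zona fasciculata and steroid genes 8 fell at withdrawal, against 1.81% of all genes, and 0 were near the floor. Their mean per array was 9.49 to 9.54 in control, 8.61 to 8.78 at withdrawal, 9.38 to 9.50 at day 3 and 9.36 to 9.46 at day 7. Mitosis genes were highest at day 3, when 9 of 13 rose over withdrawal, against 1.37% of all genes. Their mean per array was 3.52 to 3.93 in control, 3.32 to 3.57 at withdrawal, 4.42 to 4.64 at day 3 and 3.42 to 3.99 at day 7. Birc5, Aurkb and Bub1 were near the floor in all groups but day 3, and Plk1 at withdrawal. The part of these cells, and of dividing cells, in the endothelial differences was not tested.

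Vessel wall, lymphatic and other markers are read against the 4.3% of all genes that passed at withdrawal. Calls from withdrawal to day 3 are read against 2.25%. Of 15 smooth muscle and pericyte genes Higd1b, a pericyte marker, fell at withdrawal (-0.77 ± 0.18, adjusted p = 0.0205) and Cnn1, of smooth muscle, rose by day 3 (1.08 ± 0.24, adjusted p = 0.0314); the mean per array was 4.64 to 4.72 in control and 4.52 to 4.62 at withdrawal. Of 7 lymphatic genes Pdpn, which stromal cells share, rose at withdrawal (1.00 ± 0.24, adjusted p = 0.0297), with Reln, Mmrn1, Tbx1 and Sema3d near the floor in all groups. That is 14.3% of the lymphatic list, whose median at withdrawal was 0.28 and of which 4 genes lay wholly above control (57.1%, against 8.15% of all genes). For 6 platelet genes 0 passed in the 3 comparisons with withdrawal, and Itga2b, Gp9, Treml1 and Gp6 were near the floor. Among 12 hypoxia targets Car9, near the floor, fell at withdrawal (-0.60 ± 0.15, adjusted p = 0.0287), and the list's median was 0.12. Of 9 chromaffin genes Cyb561 (0.67 ± 0.15) and Ddc (0.64 ± 0.13) rose at withdrawal (22.2% of the list). Of 10 connective tissue and capsule genes 0 passed at withdrawal, with a median of 0.34, and the stromal factor Tcf21 fell by day 3 (-0.77 ± 0.18, adjusted p = 0.0382).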

How the data were processed

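RNA of 15 whole adrenal samples was measured on Affymetrix arrays after column extraction and WT Pico labelling, per the labels' protocols. The deposited log2 values came from RMA of oligo as run by the authors, per the submitters' processing notes; no version, annotation or filter was given in the sources used here. RMA equalises arrays, so a change shared by most genes would not show. Of 32736 probe sets, 22399 carried 1 symbol in the platform annotation, 1607 several and 8730 none; Entrez identifiers matched RefSeq (GRCm38.p6, names only) for 22261, and 0 symbols changed. The probe set with the highest mean was kept per gene.

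Groups were compared with limma 3.58.1 in R 4.3.3 (lmFit, eBayes), all 15 arrays in 1 model, adjusted within each of 6 comparisons. Alternatives were median centring, quantile normalization, a filter on dim genes, the most variable probe set, trend and robust options, all probe sets, a replicate block and leaving out each array of the groups compared. Scripts were tested on simulated data. A level counts as near the floor under 2.6 (the mean of array medians, 1.6, plus 1). Members and lists were chosen with earlier results of these data known. Members past the threshold and the 4 ligands are given on every array; of other lists, at most the 4 largest called differences per comparison with withdrawal are named. Id1 (against control) and members beyond these were named after their values were seen. P-values set a difference of group means against the spread between samples within groups, which may be technical in part.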

Additional observations from a re-analysis of the deposited data

Results flagged for a closer look

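Within each group of 4 arrays, every member was looked at for an array set apart from the other 3 (Dixon's test). Of 117 such groups 9 were set apart (7.69%). Chance gives about 1 in 20 only for values without ties. Several flagged groups hold identical values, such as Erg at day 7 (5.4011 on replicates 1, 2 and 3). The share is therefore not read against that rate. Whether such ties narrowed the spread in limma's fit was not tested. Control replicate 4 was low for Erg (4.64, others 5.41 to 5.54), and control replicate 2 for Cldn5 (3.89, others 4.12). At day 3, replicate 2 was high for Ramp2 (5.27, others 5.09 to 5.1) and replicate 3 for Plvap (6.61, others 6.48). At day 7, replicate 2 was high for Tek (6.93, others 6.51 to 6.52) and low for Notch4 (3.52, others 3.78) and for Icam2 (4.26, others 4.69 to 4.78). In Erg (5.39, others 5.4) and Sox7 (2.56, others 2.6), day 7 replicate 4 was low by a distance that is small beside the spread in the other groups. Without control replicate 4, Erg passed as lower at withdrawal.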

How the results depend on the processing

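The withdrawal, day 3 and day 7 counts of members called were 5, 8 and 4. With the filter on dim genes, which tests fewer genes, they were 8 for withdrawal against control (Pecam1, Esm1, Cldn5 and Tek gained; Angpt1 not tested) and 8 for day 7 against withdrawal. Trend and robust options gave 1 for day 3 against control, Cd34. Leaving out 1 array gave 4 to 6 for withdrawal against control, 4 to 7 for day 3 against withdrawal (4 without withdrawal replicate 2 or day 3 replicate 4; the 5 without withdrawal replicate 3 are 4 rises and the fall of Angpt1) and 2 to 6 for day 7 against withdrawal (2 without day 7 replicate 1). Over all genes, the filter gave 617 at day 7 against withdrawal (404 without it) and 73 at day 3 against control (28 without it); trend and robust options gave 91 there, and 2 in place of 4 at day 7 against control. No called member changed direction in any of these fits. The fit of all probe sets kept, per gene, the probe set with the lowest adjusted p. It could therefore not show the further Angpt1 probe set, whose withdrawal difference was -0.01 ± 0.20.

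Same-numbered arrays did not deviate together across genes (21 pairs, r from -0.14 to 0.06). For arrays with different numbers r ran from -0.10 to 0.13 (63 pairs). The labels do not say whether a number stands for a shared litter, day or batch, and these correlations cannot decide it. With the replicate block the counts were 4, 4 and 2 of the same members, and over all genes 544, 257 and 221 against 921, 483 and 404, with 4 at day 3 and 0 at day 7 against control. It lost Kdr at withdrawal and day 7, Cldn5 at both recovery times, and Flt4, Pecam1 and Cd34 at day 3. Vwf and Nos3 lie near the floor in all groups, and Angpt1 and Sox7 in all but withdrawal, so that a fall from there has little room. The cause of these shifts was not tested.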
